A study of Mus musculus with 2 samples.

Results

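The 40 genes described here act in the cell cycle and were taken from the count table by their names, as 40 of its 32285 genes. Of these, 13 act in S phase (*Mcm2* to *Mcm7*, *Pcna*, *Pclaf*, *Hells*, *Rrm1*, *Rrm2*, *Tk1* and *Tyms*), 26 act in G2 and mitosis (G2/M), and *Stmn1*, a regulator of microtubules, was put in neither group. All 40 had at least 100 counts over both libraries, and 22 were detected in at least 1% of the cells of either library.

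The cells were microglia, the resident macrophages of the brain, from PSAPP (APPswe/PS1δE9) mice, a model of amyloid plaques built on transgenes for mutant APP and presenilin 1. Lemborexant (LEM), a dual orexin receptor antagonist that promotes sleep, was given by oral gavage at 30 mg/kg/day for 30 days to mice aged 9 months at the start and 10 months at the end. Controls of the same genotype and age received vehicle (VEH), so both groups carried the transgenes. Live CD45lo CD11b+ DAPI− cells were sorted from cortex and hippocampus of a single hemisphere, and the cells of 5 mice were pooled into 1 library per treatment.

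With 1 library per treatment there was no replicate and no test across mice, and a treatment effect cannot be told apart from a difference between the pools. Every interval given is a 95% counting interval and covers counting error only. In VEH, 18374 cells gave 116229678 unique molecular identifiers (UMIs, here counts), a median of 5971 per cell. In LEM, 24392 cells gave 160752298, a median of 6034. Cells in which *Xist* alone was found, without Y-linked genes, are called female (5686 VEH and 8409 LEM), and those in which Y-linked genes alone were found are called male (9025 and 11223). These come from different mice of a pool, and the number of mice of each sex behind them was not given in the sources used here. The names of the cells carry no barcodes, so barcodes shared by the libraries were not counted.

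In a dividing cell, the MCM2-7 helicase opens DNA at replication origins, PCNA clamps the polymerases to it, and ribonucleotide reductase, thymidine kinase and thymidylate synthase supply nucleotides. E2F factors switch these S-phase genes on. Later, cyclins A and B with CDK1 drive entry into mitosis, Polo and Aurora kinases build the spindle, BUB proteins hold the checkpoint at kinetochores, and the anaphase-promoting complex with CDC20 and UBE2C ends it. Many of these late genes are controlled through CHR and CCAAT elements of their promoters, bound by the DREAM and MuvB complexes and by NF-Y. Adult microglia mostly rest and renew slowly, and they can proliferate around amyloid plaques.

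The promoters of the members were searched for these elements. RefSeq promoter sequences of 300 bases, 250 before and 50 after the start site, were at hand for 33 of the 40 members. *Mcm4*, *Pbk*, *Ccna2*, *Aurkb*, *Tpx2*, *Kif20a* and *Stmn1* had none. An E2F motif, spelled TTTGGCGC, TTTCCCGC, TTTGCCGC or TTTCGCGC on either strand, was found in 6 of 12 S-phase genes (*Hells*, *Mcm3*, *Mcm5*, *Mcm6*, *Mcm7* and *Pclaf*) and 1 of 21 G2/M genes (*Cdk1*), against 2.61% of all 27025 genes with such a sequence. The CHR motif, spelled TTTGAA, was found in 16 of 21 G2/M genes and 1 of 12 S-phase genes (*Mcm2*), against 20.2% of all genes. All 16 also held a CCAAT box, and 7.97% of all genes held both. CCAAT, with or without CHR, was in 19 of 21 G2/M genes and 9 of 12 S-phase genes, against 41.1% of all genes. *Tk1*, *Tyms*, *Nusap1* and *Birc5* held none of these letters in this window. Motifs of the same or another kind shared bases in *Cdca8*, *Mcm5*, *Mcm6*, *Mcm7* and *Ube2c*. The *Mcm3* gene (ENSMUSG00000041859.10) spans chr1:20802968-20820312, *Mcm7* (ENSMUSG00000029730.16) chr5:138164583-138172422, *Mki67* (ENSMUSG00000031004.8) chr7:135689784-135716361 and *Top2a* (ENSMUSG00000020914.17) chr11:98992943-99024189, all on the minus strand. A match is a description of the letters and not a site shown to be bound. The promoters of the S-phase members with the most counts that held E2F motifs follow, with those motifs in capitals. They are printed from 5′ to 3′ in the direction of the gene.
Mcm3 promoter, GRCm38.p6 chr1:20820263-20820562, minus strand: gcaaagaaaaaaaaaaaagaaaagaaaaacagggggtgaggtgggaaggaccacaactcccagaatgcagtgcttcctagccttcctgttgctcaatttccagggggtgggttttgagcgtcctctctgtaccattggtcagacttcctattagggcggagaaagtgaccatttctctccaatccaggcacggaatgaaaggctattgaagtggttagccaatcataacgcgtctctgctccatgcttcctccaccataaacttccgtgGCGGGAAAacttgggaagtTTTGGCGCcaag
Mcm7 promoter, GRCm38.p6 chr5:138171834-138172133, minus strand: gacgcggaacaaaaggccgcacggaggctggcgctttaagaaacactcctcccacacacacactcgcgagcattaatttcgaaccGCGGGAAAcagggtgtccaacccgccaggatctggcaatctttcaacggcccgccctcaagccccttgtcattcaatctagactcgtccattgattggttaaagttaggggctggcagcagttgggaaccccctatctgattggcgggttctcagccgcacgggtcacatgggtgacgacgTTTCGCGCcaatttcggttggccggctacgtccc

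The same is shown for the G2/M members with the most counts that held CHR motifs, with CHR motifs and CCAAT boxes of either strand in capitals.
Mki67 promoter, GRCm38.p6 chr7:135716330-135716629, minus strand: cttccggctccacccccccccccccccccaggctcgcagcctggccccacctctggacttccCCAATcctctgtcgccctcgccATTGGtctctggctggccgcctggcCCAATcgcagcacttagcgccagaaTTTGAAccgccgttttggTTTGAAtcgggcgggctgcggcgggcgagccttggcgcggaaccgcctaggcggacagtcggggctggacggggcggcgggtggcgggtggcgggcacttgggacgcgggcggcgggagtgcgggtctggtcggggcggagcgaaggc
Top2a promoter, GRCm38.p6 chr11:99024140-99024439, minus strand: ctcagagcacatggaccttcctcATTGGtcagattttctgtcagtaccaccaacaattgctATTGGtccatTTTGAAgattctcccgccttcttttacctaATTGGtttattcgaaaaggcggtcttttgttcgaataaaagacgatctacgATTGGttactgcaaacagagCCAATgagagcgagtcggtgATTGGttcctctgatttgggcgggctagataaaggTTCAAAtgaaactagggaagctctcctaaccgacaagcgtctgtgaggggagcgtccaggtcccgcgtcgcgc
In *Mki67*, 2 CHR motifs began 116 and 98 bases before the start site, downstream of 3 CCAAT boxes. *Top2a* held a CHR motif on the strand opposite to the gene, beginning 23 bases before the start site. In *Mcm3* both E2F motifs lay after the start site, at positions 20 and 39, and in *Mcm7* they lay at −165 and 17.

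The G2/M members were found together in few cells. In both libraries, 38435 cells held a count of none of the 26 and 3633 a count of 1 of them, 260 cells held 2, 63 held 3 or 4, 51 held 5 to 9, 108 held 10 to 19 and 216 held 20 to 26. The numbers were lowest at 9 genes in LEM (0 cells) and at 10 genes in VEH (1 cell), and all 26 genes were found in 21 VEH and 33 LEM cells. A cell was said to hold G2/M members when at least 5 of the 26 had a count, a cut set below these lowest numbers. The call rested little on this choice, since only 4 VEH and 14 LEM cells had 4 of the genes and 4 and 8 had exactly 5. The S-phase members had no such gap. Of all cells, 45.8% held none of the 13, 33.0% held 1, 5.82% held 3 or 4, and 0.711% held 8 to 13, with fewer cells at each step. Here 233 VEH and 414 LEM cells lay at 4 genes and 109 and 190 at 5, so the class with S-phase members is a range of a count and not a cell type.

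**Figure D1:**
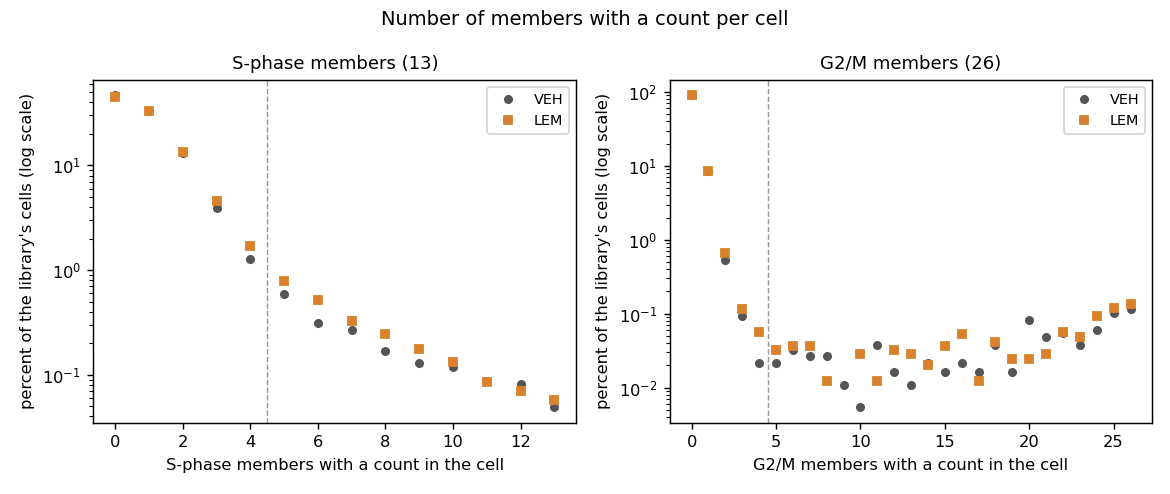
Percent of each library's cells (log scale) by the number of the 13 S-phase members (left) or 26 G2/M members (right) with a count in the cell, for VEH (circles) and LEM (squares), with the dashed line below 5 genes. The S-phase numbers decline without a gap, and the G2/M numbers fall to their lowest around 9 and 10 genes and are higher again at 20 to 26.

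Pairs of members were detected together more often than the product of their shares of cells, as a description over the same 42766 cells. Over the 325 pairs of G2/M members, the joint share was a median of 62.0 times that product (10.7 to 119). Over the 78 S-phase pairs it was 3.54 times (1.34 to 84.5) and over the 338 mixed pairs 6.11 times (1.45 to 122). This multiple has a lower ceiling for genes found in more cells, so it does not rank the kinds of pair. The phi coefficient, a correlation of detection over cells, had medians of 0.556 for G2/M pairs, 0.132 for S-phase pairs and 0.125 for mixed pairs. Deeper cells hold more genes of every kind. With each cell thinned to 2000 counts, the medians of the multiple for G2/M, S-phase and mixed pairs were 80.6, 4.09 and 6.04. Those of phi were 0.336, 0.0527 and 0.0509. *Rrm2*, the inducible subunit of ribonucleotide reductase, stood with the G2/M genes: it was found with *Pbk*, a mitotic kinase, in 180 cells, 122 times the product. *Mcm3* and *Pcna* were the S-phase pair nearest to the product, at 1.34 with 2291 cells. The G2/M pair nearest to it, *Cdk1* and *Cenpa*, was found together in 250 cells, at 10.7 times.

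Most counts of the G2/M members lay in the cells that held at least 5 other G2/M members. Such cells were 0.877% of all cells and held 1.40% of all counts. For every member, that member was left out of the call. They held a median of 88.9% of the counts of a G2/M member, from 63.2% for *Cdk1* to 98.2% for *Pbk*. *Mki67*, the proliferation antigen, had 96.2% of its counts there, and *Top2a*, which untangles replicated chromosomes, had 96.3%. *Cenpa*, the centromeric histone H3 variant, had 64.4%. Of the S-phase members, the median was 15.6%. *Rrm2* (97.6%), *Pclaf*, a partner of PCNA (81.5%), and *Tk1*, cytosolic thymidine kinase (75.6%), lay above 75% and the other 10 between 5.10% (*Mcm3*) and 19.2% (*Hells*). *Stmn1* had 44.6%. Cells with at least 5 other S-phase members and under 5 G2/M members were 1.57% of all cells. Their share of counts was highest for *Hells*, a helicase of chromatin (27.2%), *Mcm2* (22.5%) and *Mcm5* (22.4%), and they held a median of 0.668% of the counts of a G2/M member.

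**Figure D2:**
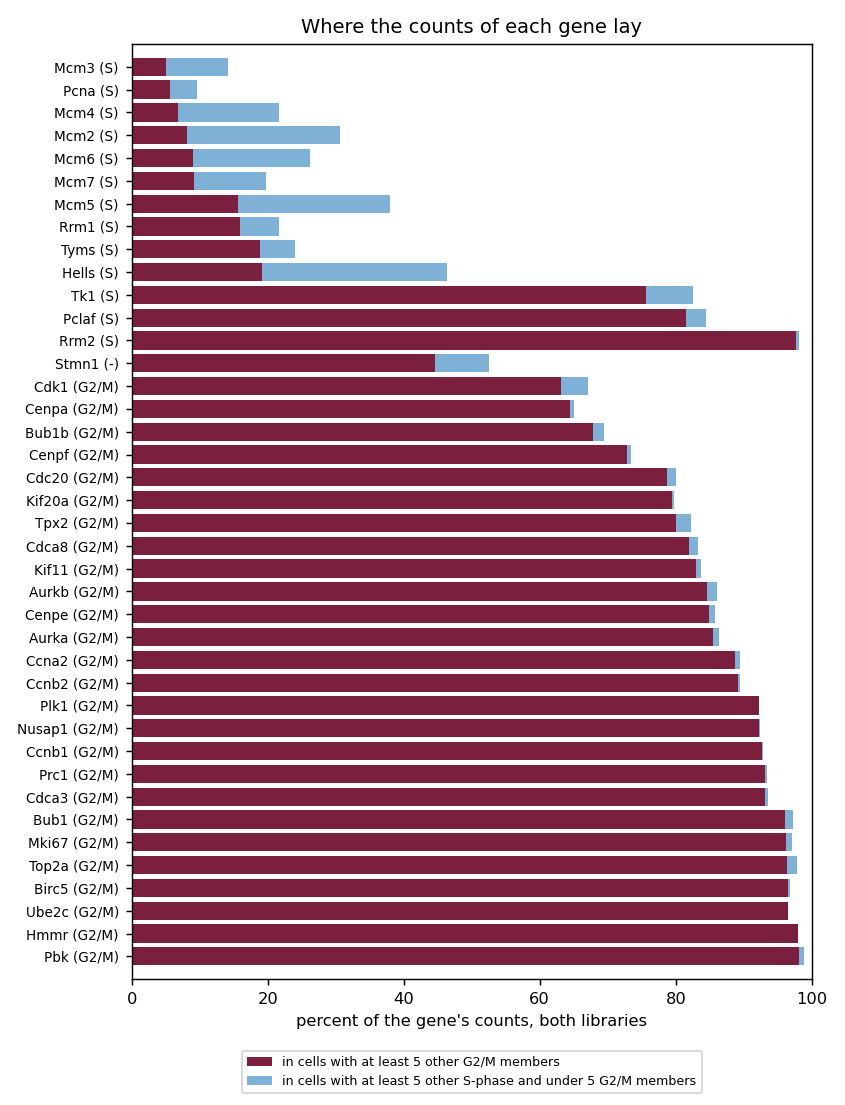
Percent of each gene's counts, over both libraries, in cells with at least 5 other G2/M members (dark) and in cells with at least 5 other S-phase and under 5 G2/M members (light). *Rrm2*, *Pclaf* and *Tk1* lie among the G2/M members (63.2% to 98.2% dark), while *Mcm3* and *Pcna* have most counts in neither kind of cell.

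Cells with markers of another lineage were used to look for free RNA. Choroid plexus-like cells, defined by at least 4 of 12 epithelial markers with at least 20 counts of *Ttr*, numbered 198 (52 VEH, 146 LEM), with a median depth of 8213 counts against 6000 in the others. They were compared with the other cells, for each gene among cells with no other G2/M member, which left 165 to 180 choroid plexus-like cells. A G2/M member was detected in a median of 0.252% of the other cells. In choroid plexus-like cells 14 of 26 G2/M members were in none of 165, for which the exact 95% upper limit is 2.21%, and 22 were in at most 1 cell. For an S-phase member the medians were 6.16% in the other cells and 6.06% in choroid plexus-like cells, and with both thinned to 2000 counts they were 2.23% and 1.28%. The share in the other cells lay within the interval of the choroid plexus-like share for 25 of 26 G2/M members, 12 of 13 S-phase members and *Stmn1*. It lay below that interval for *Cdk1* (1.602% against 8.33%) and *Rrm2*, and above it for 0 members. These few cells leave wide intervals, so scattered counts of members in cells with no other G2/M member could not be told apart from free RNA. At least 2 of 6 microglial markers were found in 42711 of all 42766 cells, so most choroid plexus-like cells carried them too. Whether their droplets also held a microglial cell, or made the members themselves, was not tested. For that reason, similar shares cannot show that the counts were free RNA. *Pcna* was found in 24.7% of the other cells and 20.6% of choroid plexus-like cells (14.7% to 27.6%), and *Mcm3* in 14.8% and 12.1% (7.56% to 18.1%). In the cells with G2/M members a G2/M member was detected in a median of 71.8%, from 54.7% (*Kif20a*) to 91.1% (*Mki67*), and *Stmn1* in 95.5%.

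Cells with G2/M members fell into those that also held at least 5 S-phase members and those that did not. The share with both was 66.2% in VEH (100 of 151 cells, 58.1% to 73.7%) and 63.8% in LEM (143 of 224, 57.2% to 70.1%). By female and male cells it was 67.9% and 67.1% in VEH and 68.3% and 68.6% in LEM. These 4 pools did not differ beyond their intervals. The cells with both had a median of 10569 counts and those with G2/M members alone 8385.5, so depth moved with the split. With all cells thinned to 2000 counts, 33 of 121 VEH cells and 50 of 179 LEM cells with G2/M members held both, so the share with both depends on depth.

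Between the cells with both and those with G2/M members alone, the mitotic genes differed in both directions. They are listed by the size of this ratio, in cells as deposited and not thinned, and an order in time was not tested. *Cdc20*, the activator of the anaphase-promoting complex, was at 199.8 CPM (counts scaled to a total of 1000000) in cells with both and 425 CPM in cells with G2/M members alone, a log2 ratio of 1.09 (0.91 to 1.27). It was 0.89 in VEH and 1.17 in LEM. *Cenpa* followed with 0.86 (0.70 to 1.03), *Cenpf*, a kinetochore protein, with 0.75 (0.60 to 0.89), *Ccnb1*, cyclin B1, with 0.69 (0.47 to 0.91) and *Kif20a*, a kinesin of cytokinesis, with 0.63 (0.36 to 0.91). *Pbk* was at the other end, at 397 and 154 CPM, a log2 ratio of −1.36 (−1.60 to −1.14). *Aurkb*, the kinase of the chromosomal passenger complex, had −0.95, *Nusap1*, a spindle protein, −0.83, *Cdca3* −0.77, *Top2a* −0.74 and *Kif11*, the kinesin that separates spindle poles, −0.66. *Mki67* (−0.14), *Plk1* (−0.04) and *Tpx2* (0.05) lay near 0.

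For this ratio between the kinds of cell, 23 of the 26 G2/M members had the same sign in VEH and LEM, and *Plk1*, *Prc1* and *Tpx2* did not. *Ccnb1*, *Ccnb2*, *Cdc20*, *Cenpa*, *Cenpf* and *Kif20a* lay above 0 in all 4 pools of female and male cells. Below 0 in all 4 were *Aurkb*, *Birc5*, *Bub1*, *Ccna2*, *Cdca3*, *Cdca8*, *Cdk1*, *Kif11*, *Nusap1*, *Pbk* and *Top2a*. All 13 S-phase members were lower in the cells with G2/M members alone, by a median log2 ratio of −3.03, which the definition of the cells favours even with each gene left out of its own call. Between cells with S-phase members alone and cells with both, these genes split again. *Mcm2* was at 71.0 CPM in cells with S-phase members alone and 51.5 CPM in cells with both, *Mcm4* at 97.9 and 86.5, *Mcm3* at 166 and 158. *Rrm2* was at 0.579 and 285 CPM, *Pclaf* at 3.21 and 222, *Tk1* at 13.03 and 346 and *Tyms*, thymidylate synthase, at 35.1 and 293. In cells with S-phase members alone, *Rrm2* was detected in 0.595%, *Pclaf* in 2.40% and *Tk1* in 8.43%. The class is named after its members, and whether its cells were in S phase was not tested.

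**Figure D3:**
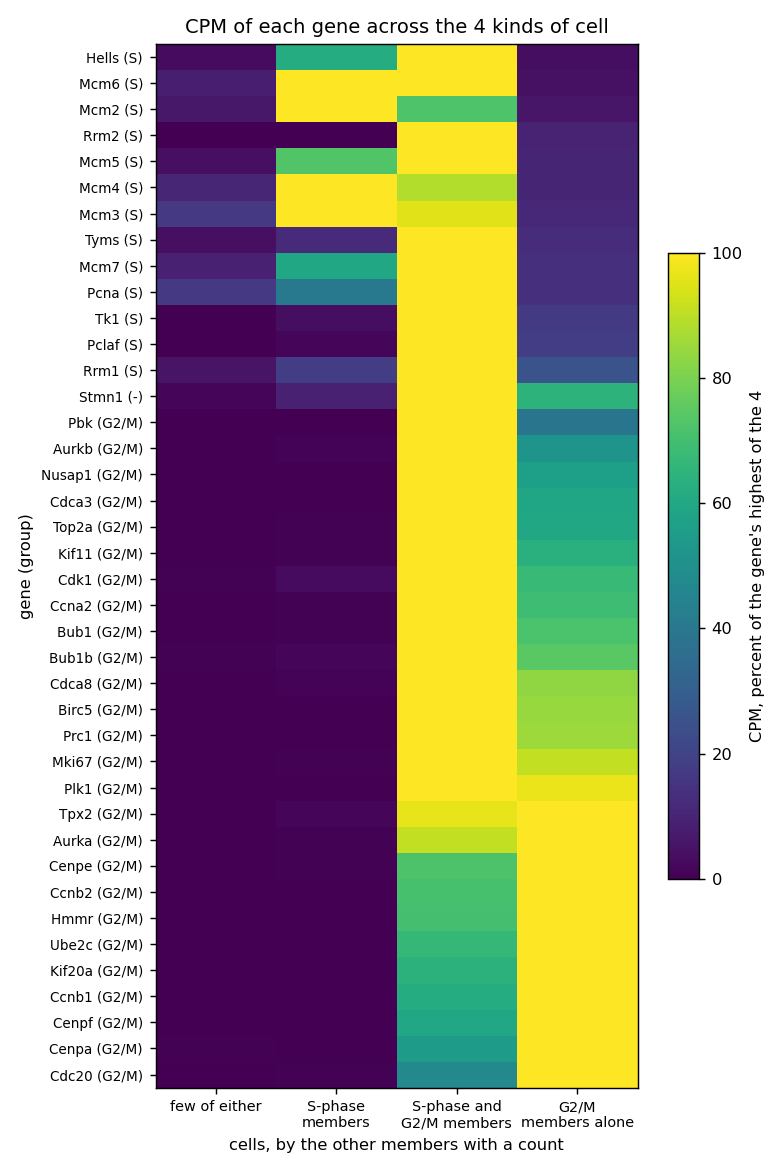
CPM of each gene (rows, with its group) in 4 kinds of cell (columns), as a percent of the gene's highest value, both libraries, with the gene left out of the call of the cells. MCM genes are high in cells with S-phase members alone and in cells with both groups, *Rrm2*, *Pclaf* and *Tk1* in cells with both, *Pbk* and *Top2a* highest with both, and *Cdc20*, *Cenpa* and *Cenpf* highest in cells with G2/M members alone.

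Between the treatments, the members had slightly more counts in LEM. Summed over the 26 G2/M members VEH held 14118 counts and LEM 22030, which gave a log2 ratio of CPM, LEM over VEH, of 0.17 (0.14 to 0.20), which was 0.036 in cells thinned to 2000 counts. For the 13 S-phase members the sums were 22507 and 31902, with a log2 ratio of 0.04 (0.01 to 0.06), or 0.0052 with the sexes weighted equally. Of the 40 members, 31 were above 0, beside 8073 of the 14489 genes with at least 100 counts. The median log2 ratio was 0.17 over the members, against 0.01 over those genes. Past a log2 ratio of 0.25, 12 members were higher in LEM (4 S-phase, 8 G2/M), beside 9.96% of all genes tested, and 0 were lower, beside 7.29%. With the sexes weighted equally 6 were higher, beside 10.4% of all genes, and 4 lower, beside 7.8%, and the summed G2/M ratio was 0.014. These numbers are calls of size and not of a test, and members share cells.

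Because the counts of a G2/M member come from so few cells, intervals on counts are too narrow, and the numbers of cells give a second measure. *Ccnb1*, with 265 VEH and 487 LEM counts, or 2.28 and 3.03 CPM, had the largest log2 ratio of the members at 0.41 (0.19 to 0.63). Its counts lay in 101 VEH cells (0.550%) and 163 LEM cells (0.668%), and the shares gave 0.28 (−0.09 to 0.65) on the log2 scale. For all 26 G2/M members the interval of the ratio of shares included 0, while 15 had a count interval above 0 and 1, *Mki67*, below. The share of all genes with such count intervals is not given here.

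The genes of replication differed among themselves. Of the MCM helicase, *Mcm3* was at 27.2 CPM in VEH and 34.1 in LEM, with a ratio (log2) of 0.32 (0.26 to 0.39). *Mcm7* was at 13.7 and 16.9 CPM, a log2 ratio of 0.30 (0.21 to 0.39), and *Mcm2* at 5.66 and 6.92 CPM, 0.29 (0.15 to 0.43). *Mcm5* had 0.25, *Mcm6* 0.17 and *Mcm4* 0.14, so all 6 subunits had ratios above 0 over all cells, and their shares of cells too. In female cells *Mcm5* was −0.19 (−0.39 to −0.002), *Mcm3* −0.019 and *Mcm7* 0.004, and all 6 were above 0 in male cells. *Hells* was at 3.96 and 5.08 CPM, a log2 ratio of 0.36 (0.19 to 0.53), the highest of the S-phase members.

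The clamp and the enzymes of nucleotide supply did not follow the helicase. *Pcna* was at 63.0 CPM in VEH and 53.6 in LEM, with a ratio (log2) of −0.23 (−0.28 to −0.19), the lowest of the 40 members. Its share of cells was 26.7% in VEH and 24.7% in LEM, also lower by its interval (−0.17 to −0.06 on the log2 scale). By sex the count ratio of *Pcna* was −0.41 in female and −0.10 in male cells, and the share ratio −0.25 and −0.05 (−0.13 to 0.03). *Tyms* was at 16.5 and 14.7 CPM, −0.17 (−0.26 to −0.08), *Tk1* at 4.92 and 4.44, −0.15 (−0.31 to 0.01), and *Rrm1*, the large subunit of ribonucleotide reductase, at 19.3 and 18.8, −0.04 (−0.12 to 0.04). *Rrm2* was at 2.83 and 2.97 CPM, 0.07 (−0.14 to 0.28), and *Pclaf* at 2.80 and 2.79 CPM, with an interval of −0.21 to 0.21. *Stmn1* was at 24.6 and 21.5 CPM, a log2 ratio of −0.19 (−0.27 to −0.12). Female cells gave −0.66 for *Stmn1*, while for male cells the value was −0.03 (−0.13 to 0.07).

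Of the cyclins and kinases of mitotic entry, *Ccnb1* is given above. *Ccnb2*, cyclin B2, was at 4.48 CPM in VEH and 5.14 in LEM, with a ratio (log2) of 0.20 (0.04 to 0.36). *Ccna2*, cyclin A2, was at 3.91 and 4.40 CPM, 0.17, and *Cdk1*, their kinase, at 7.24 and 8.15 CPM, 0.17 (0.04 to 0.30). *Plk1*, Polo-like kinase 1, was at 2.74 and 3.46 CPM, 0.34 (0.14 to 0.54), but −0.031 with cells thinned to 2000 counts. The Aurora kinases both had 0.15, with *Aurka* at 2.37 and 2.63 CPM and *Aurkb* at 3.08 and 3.43 CPM, and their intervals included 0. *Pbk* was at 4.42 and 4.62 CPM, 0.06 (−0.10 to 0.23).

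At kinetochores and centromeres, *Cenpf* (7.35 and 8.24 CPM), *Cenpa* (6.72 and 7.52 CPM) and *Cenpe*, a kinesin (3.26 and 3.65 CPM), all had a log2 ratio of 0.16. *Birc5*, survivin of the passenger complex, was at 4.90 CPM in VEH and 5.89 in LEM, 0.27 (0.12 to 0.42), and its partner *Cdca8*, borealin, at 4.78 and 4.96 CPM, 0.05. The checkpoint kinases *Bub1* (1.59 and 1.52 CPM, −0.06) and *Bub1b* (2.45 and 2.58 CPM, 0.07) had intervals that included 0.

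The spindle genes ranged from *Kif11*, at 3.27 CPM in VEH and 3.10 in LEM, −0.08 (−0.27 to 0.12), to *Kif20a*, at 1.78 and 2.34 CPM, 0.39 (0.14 to 0.65), which was −0.046 in thinned cells. *Nusap1* was at 3.67 and 4.73 CPM, 0.37 (0.19 to 0.54). Between them lay *Prc1*, which bundles the midzone (5.90 and 6.97 CPM, 0.24), *Tpx2*, an activator of Aurora A (5.21 and 5.86 CPM, 0.17), and *Hmmr*, a spindle protein (3.25 and 3.56 CPM, 0.13).

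The genes of the anaphase-promoting complex and its targets had some of the largest ratios in all cells as deposited. *Cdc20* was at 4.001 CPM in VEH and 5.26 in LEM, 0.40 (0.23 to 0.56), and its ratio in thinned cells was −0.064. *Ube2c*, the ubiquitin-conjugating enzyme of the same complex, was at 6.49 and 8.32 CPM, 0.36 (0.23 to 0.49), and *Cdca3* at 3.07 and 3.98 CPM, 0.37 (0.19 to 0.57). *Top2a* was at 10.7 and 12.2 CPM, and *Mki67* at 12.6 and 11.6 CPM, so that these common markers of proliferation stood on different sides of 0 over all cells. In either sex both stood on the same side, below 0 in female and above 0 in male cells. *Mki67* was found in 177 VEH cells (0.963%) and 256 LEM cells (1.05%), and the shares gave 0.12 (−0.16 to 0.41) on the log2 scale, while its counts went the other way.

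**Figure D4:**
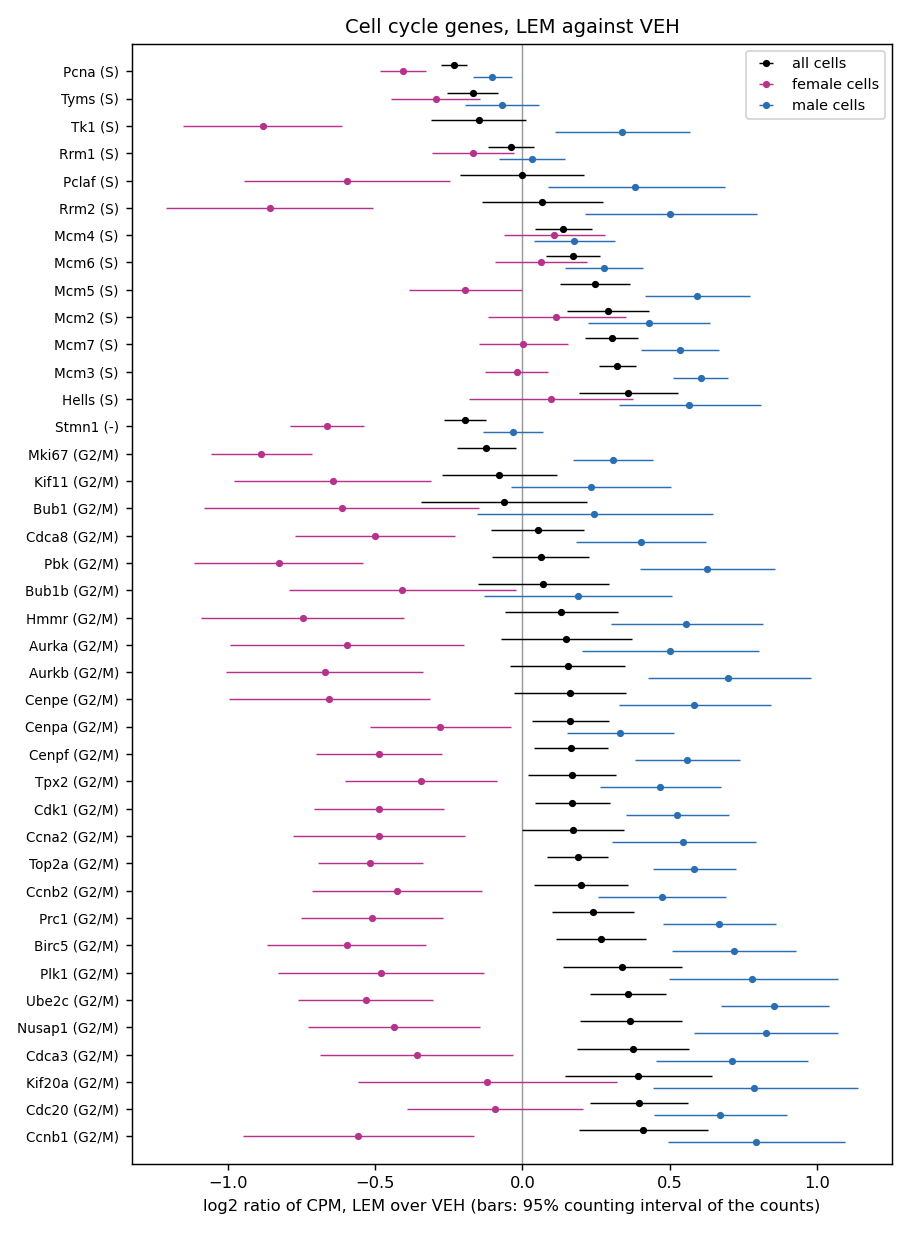
Log2 ratio of CPM, LEM over VEH, of each gene (group in parentheses) in all cells (black), female cells (magenta) and male cells (blue), with 95% counting intervals of the counts. For all cells the genes run from −0.23 (*Pcna*) to 0.41 (*Ccnb1*), and in every row the male point lies to the right of the female point.

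Female and male cells went different ways. In female cells 30 of 40 members were past −0.25, beside 12.9% of all genes tested, and 0 were past 0.25, beside 13.1%. Male cells had 32 past 0.25, beside 13.6%, and 0 past −0.25, beside 9.14%. The male log2 ratio was above the female one for all 40, and the share of all genes with this order is not given here. Over the 26 G2/M members the median was −0.51 in female and 0.57 in male cells, and over the 13 S-phase members −0.17 and 0.38, against 0.00 and 0.03 over all genes. *Ube2c* was at 8.49 CPM in VEH and 5.87 in LEM female cells, and at 6.04 and 10.9 in male cells. *Rrm2* was at 4.13 and 2.28 CPM in female and 2.64 and 3.73 in male cells. VEH and LEM differed in which sex was higher: over the G2/M members, the median log2 ratio of male over female cells was −0.38 in VEH and 0.73 in LEM.

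In numbers of cells this was a weaker difference. Cells with G2/M members were 56 of 5686 female VEH cells (0.985%) and 60 of 8409 female LEM cells (0.714%), a log2 ratio of −0.46 (−1.01 to 0.09). Among male cells they were 76 of 9025 (0.842%) and 121 of 11223 (1.08%), 0.36 (−0.07 to 0.79). Both intervals included 0, and the male ratio exceeded the female ratio by 0.82 (0.15 to 1.49, a normal approximation for the 4 numbers of cells). For cells with S-phase members the same difference was 0.46 (−0.047 to 0.96). By shares of cells, 0 of the 40 members had intervals on opposite sides of 0 in the sexes, against 25 by counts. The share of all genes with opposite intervals is not given here. Both sexes were found in each pool, so each sex of a pool is fewer than 5 mice, and a single animal cannot be told apart from a sex.

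Over all cells, 151 VEH cells held G2/M members, or 0.822% (0.696% to 0.963%), and 224 LEM cells, or 0.918% (0.802% to 1.05%), a log2 ratio of 0.16 (−0.14 to 0.47), which was −0.054 with the sexes weighted equally. With at least 3 G2/M genes the log2 ratio was 0.22 (−0.06 to 0.51), and with at least 8 it was 0.13 (−0.19 to 0.46). A difference between the libraries was not detectable at these numbers. Cells with at least 5 S-phase and under 5 G2/M members were 232 in VEH, 1.26% (1.11% to 1.43%), and 440 in LEM, 1.80% (1.64% to 1.98%), a log2 ratio of 0.51 (0.28 to 0.75). Female cells gave 0.18 (−0.20 to 0.56), and male cells gave 0.64 (0.28 to 0.99). When a gene had to have 2 counts, it fell to 0.04 (−0.50 to 0.59), an interval that holds both 0 and 0.51. In cells thinned to 2000 counts it was 0.31 (−0.55 to 1.21) with at least 5 genes, on 19 VEH and 32 LEM cells, and 0.38 (0.07 to 0.70) with at least 3. Shares were lower after thinning: cells with at least 5 G2/M genes were 0.709% in VEH and 0.772% in LEM.

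**Figure D5:**
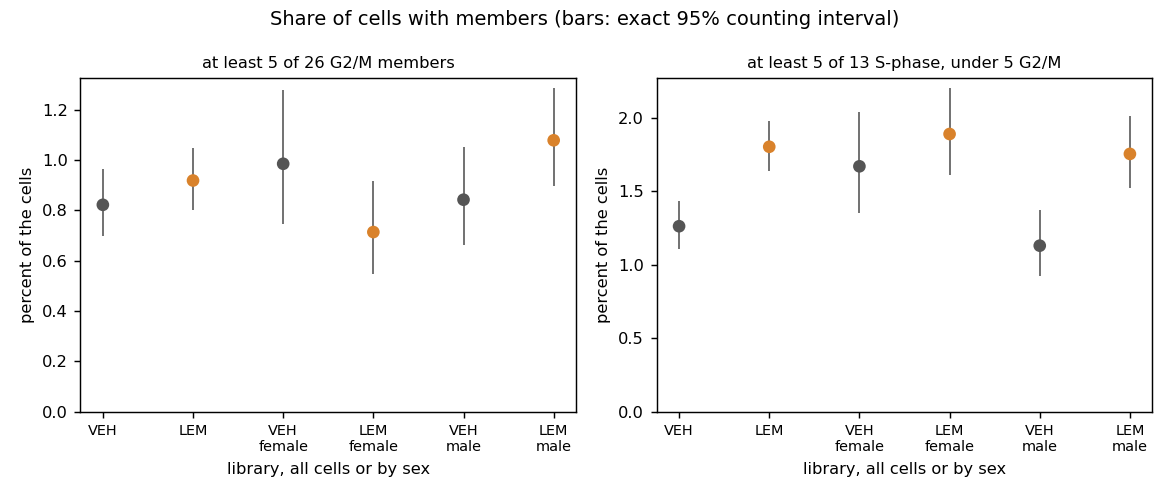
Percent of cells with at least 5 of the 26 G2/M members (left) and with at least 5 of 13 S-phase and under 5 G2/M members (right), in each library and in its female and male cells, with exact 95% counting intervals. The G2/M shares are higher in VEH among female cells and in LEM among male cells, with overlapping intervals, and the S-phase share is higher in LEM.

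Cells with members were deeper than the rest. Their median was 9821 counts with G2/M members and 9378 with S-phase members, against 5948. Over 15000 counts lay 17.3% of the cells with G2/M members and 2.54% of the rest. Of the cells with S-phase members, 9.91% in VEH and 17.5% in LEM lay over 15000 counts, against 2.14% and 2.84% of the rest. The deepest cell the authors kept had 19999 counts, and how many cells with members lay above that limit was not tested. *Xist* and Y-linked genes together, as a droplet with 2 cells can show, were found in 7.47% of cells with G2/M members (5.02% to 10.6%), 12.6% with S-phase members (10.2% to 15.4%) and 6.31% of the rest. By library, such cells were 9.91% of the cells with S-phase members and 5.29% of the rest in VEH, and 14.1% and 7.08% in LEM. Of the cells with S-phase members, 14.0% lay among the 10% of each library with the highest Scrublet doublet scores, against 9.95% of the rest. Without those cells the share with S-phase members had a log2 ratio of 0.44 (0.19 to 0.70).

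Within the cells with G2/M members, treatment ratios were small for most genes. Over the 26 G2/M members the median log2 ratio was 0.09, and for 19 it was above 0. *Mki67* was at 936 CPM in VEH and 776 in LEM, −0.27 (−0.37 to −0.17), and *Stmn1* at 831 and 660, −0.33 (−0.44 to −0.22). *Cdc20* was at 224 and 298 CPM, 0.42 (0.23 to 0.61), and *Kif20a* at 103 and 131, 0.34 (0.06 to 0.63). Of the S-phase members 12 of 13 were below 0, with a median of −0.14, and *Pcna* (262 and 212 CPM, −0.30), *Mcm6* (110 and 84.7, −0.37), *Tyms* (−0.29) and *Tk1* (−0.27) had count intervals below 0. The shares of all genes with such signs or intervals in these cells are not given here. By sex the S-phase median was −0.31 in female cells (11 of 13 below 0) and 0.018 in male cells (6 of 13 below 0), and *Pcna* was −0.74 in female and −0.030 in male cells. In female cells with G2/M members the median over the G2/M members was −0.01 and in male cells 0.20, against −0.51 and 0.57 over all cells of each sex.

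Other genes of the cell cycle, from lists of 45 S-phase genes, 64 G2/M genes and 39 regulators of entry and exit, were all tested. Over all genes tested, 9.96% were higher and 7.29% lower by the same rule. Of the S-phase list 4 were past 0.25 and 1 past −0.25, with a median of 0.05. Of the G2/M list 10 were higher and 0 lower, with a median of 0.08. The regulators had 8 higher and 1 lower, with a median of 0.06. The male ratio was above the female one for 41 of 45, 63 of 64 and 29 of 39. The median in female and male cells was −0.09 and 0.19 for the S-phase list and −0.33 and 0.33 for the G2/M list. For the regulators it was −0.09 and 0.15. A median of 70.0% of the counts of the G2/M list lay in the cells with G2/M members, against 12.6% of the S-phase list and 3.33% of the regulators.

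At the ends of the S-phase list stood *Ung*, which removes uracil from DNA (136 counts in VEH and 252 in LEM, with a ratio (log2) of 0.42), *Dscc1* (0.35) and *Tipin* (0.32), and *Brip1*, a helicase of repair (329 and 362 counts, −0.33), *Ccne2*, cyclin E2 (−0.14), and *Rpa2* (−0.08). In female and male cells *Ung* was −0.08 and 0.75, *Dscc1* 0.34 and 0.40 and *Tipin* 0.26 and 0.33. *Brip1* was −0.86 and 0.04, *Ccne2* −0.57 and 0.20 and *Rpa2* −0.23 and 0.05. In the G2/M list, *Kif2c* (229 and 444 counts, 0.49), *Dlgap5* (0.47) and *Ncapd2* (0.39) were highest and *Kif15* (512 and 607 counts, −0.22), *Cks2* (−0.22) and *Melk* (−0.13) lowest. By sex, female before male, *Kif2c* was 0.01 and 0.68, *Dlgap5* −0.25 and 1.00 and *Ncapd2* 0.09 and 0.48. *Kif15* was −0.60 and 0.06, *Cks2* −0.41 and −0.09 and *Melk* −0.80 and 0.21. Of the regulators, *Ccnd2*, cyclin D2, had 106 counts in VEH and 313 in LEM, 1.09 (0.77 to 1.43), with 2.86% of its counts in cells with G2/M members. *Chek2*, a checkpoint kinase (3633 and 7079 counts, 0.49), and *E2f2* (442 and 838 counts, 0.46) followed. *Cdkn1b*, the inhibitor p27, had 6549 and 7576 counts, −0.26 (−0.31 to −0.21), *Foxm1*, an activator of G2/M genes, −0.24 and *Tfdp2*, a partner of E2F, −0.16.

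Outside these lists, the genes with the largest share of counts in the cells with G2/M members, in order, were *Sapcd2* (98.9%), *Ankle1*, *Fam83d*, *Hist1h2af*, *Depdc1a*, *Hist1h3b*, *Hist1h3g*, *Aspm*, *BC030867* and *Phf19* (91.3%). Among them *Aspm*, a spindle pole protein, had 214 VEH and 414 LEM counts, with a ratio (log2) of 0.48 (0.24 to 0.73). The replication-dependent histones had the other sign, with 282 and 202 counts of *Hist1h2af*, −0.95 (−1.22 to −0.68), 98 and 90 of *Hist1h3g*, −0.59, and 266 and 302 of *Hist1h3b*, −0.28. These genes have near-identical copies, so their counts are uncertain. In the cells with S-phase members no gene had over 50% of its counts. *Rmi2* (38.5%), *Timeless*, of the replication fork (31.1%), *Cxcl9*, *Gm10457*, *Fignl1*, *D430020J02Rik*, *Ccdc155*, *Tcf19*, *Wdhd1* and *Pole2* (16.5%) led there. *Cxcl9*, a chemokine, had 15 counts in VEH and 156 in LEM.

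The cells with members carried microglial markers. At least 2 of 6 microglial markers were found in all 375 cells with G2/M members, and each marker in 97.6% or more. Of the 4 monocyte markers, *Plac8* was found in 22.9% of these cells and 1.73% of the rest, while *Ccr2* was in 2.93% and 2.64% and *Ly6c2* and *Chil3* in 1 cell each. The part of *Plac8* in the other results was not tested. Neutrophil markers were at 0 and at least 2 markers of choroid plexus were found in 1 of the 375 cells. At least 2 monocyte markers were found in 3 cells (0.8%, against 0.0575% of the rest). At least 2 markers of border-associated macrophages were found in 1 cell, of astrocytes in 2, of neurons in 1, of endothelium in 2 and of oligodendrocytes in 18 (4.80%, against 3.13% of the rest). No cell with G2/M members held 2 of the markers of T and NK cells, B cells, oligodendrocyte precursors or pericytes. All 672 cells with S-phase members held at least 2 microglial markers, and 44 (6.55%) held at least 2 of oligodendrocytes. The latter were 9.48% in VEH, against 2.68% of the rest, and 5% in LEM, against 3.47%. Choroid plexus and endothelium each had 3 such cells and border-associated macrophages 2.

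Microglial state genes differed between the cells with G2/M members and the rest. Homeostatic genes were lower in them, by a median log2 ratio of −0.53 in VEH (16 of 18 below 0) and −0.45 in LEM (17 of 18). *P2ry12*, a purinergic receptor, was at 2208 CPM in cells with G2/M members and 4319 CPM in the rest in VEH, and at 2340 and 4135 CPM in LEM. The interferon genes were above 0 for 13 of 13 in VEH, with a median of 1.58, and for 10 of 13 in LEM, with a median of 0.37. *Isg15* was at 82.9 CPM in cells with G2/M members and 20.5 in the rest in VEH, against 38.1 and 25.9 in LEM. Genes of disease-associated microglia (DAM) had medians of −0.21 in VEH (7 of 20 above 0) and 0.13 in LEM (12 of 21). In both libraries *Axl*, *Ccl6*, *Cd68*, *Cst7*, *Lgals3*, *Lpl* and *Spp1* were above 0, and *Apoe*, *Cd63*, *Cd9*, *Ctsb*, *Ctsd*, *Igf1*, *Lyz2*, *Trem2* and *Tyrobp* below. Of these, the counting interval included 0 for *Axl* in VEH, for *Cd68*, *Cd9* and *Igf1* in LEM, and for *Lgals3* in both. In cells with G2/M members *Igf1* had 1 count in VEH and 6 in LEM, and *Lgals3* 10 and 17. MHC class II genes had medians of −0.96 in VEH (5 of 5 below 0) and −0.35 in LEM (4 of 6). Whether these differences between cells themselves differed between the libraries was not tested. In cells with S-phase members, homeostatic medians were −0.10 in both libraries and interferon medians 1.10 and 0.50, VEH before LEM. DAM genes had medians of 0.25 in VEH (17 of 20 above 0) and 0.54 in LEM (20 of 21). MHC class II genes had medians of 0.0001 in VEH (3 of 5 above 0) and −0.30 in LEM (0 of 5). In VEH the counting intervals of those 3, *H2-Ab1*, *H2-Eb1* and *Cd74*, included 0. CPM are shares of a cell's counts, and fewer counts of one gene cannot be told apart from more of others.

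Reads of 9 members may be shared with a gene of the count table on the opposite strand whose exons overlap theirs in the annotation: *Mcm7* (*Ap4m1*, *Cops6*), *Tk1* (*Afmid*), *Ccna2* (*Exosc9*), *Cdca8* (*9930104L06Rik*), *Kif20a* (*Cdc23*), *Prc1* (*Rccd1*), *Nusap1* (*Oip5*), *Cdc20* (*Elovl1*) and *Ube2c* (*Tnnc2*). The strand setting of the counting is not given in the sources used here.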

How the data were processed

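Microglia of PSAPP mice were measured by single-cell RNA-seq, 1 library of 5 pooled mice per treatment (10x Chromium 5′ V2). The authors used Cell Ranger 8.0.0 with the mm10 transcriptome, named SoupX for free RNA, and removed cells with few genes, high totals or high mitochondrial shares. The deposited table holds UMI counts as whole numbers for each gene in each cell, without normalization. Whether they include the SoupX correction could not be told. Measured extremes were 501 genes, 19999 counts and 2.50% mitochondrial counts.

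CPM per library or class of cells and log2 ratios (LEM over VEH) were computed, with exact conditional binomial intervals for counts and Clopper-Pearson intervals for shares at 95%. A gene was tested with at least 100 counts and called past a log2 ratio of 0.25, with no p-value. No ratio was given where both sides held at most 3 counts. Cells were thinned to 2000 counts, which left out 1305 VEH and 1215 LEM cells. Scrublet (scanpy 1.11.5, rate 0.1) called 0 VEH and 3113 LEM cells doublets by its own threshold, so the 10% of cells with the highest scores were left out as an alternative, and kept otherwise. Other alternatives changed scaling, filters, cells and cut-offs. The interval step was tested on simulated data. Named genes were all 40 members, the 3 highest and 3 lowest of each other list, and the 10 leading genes of each class of cells. Members, lists and tests were chosen with earlier results of these data known. Positions and promoters are of GRCm38.p6, the build of mm10. Intervals came from scipy 1.17.1, tables from pandas 2.3.3 with numpy 2.4.6 and figures from matplotlib 3.10.9, under Python 3.11.15.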

Additional observations from a re-analysis of the deposited data

Results flagged for a closer look

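Female and male cells gave treatment ratios of opposite sign, and for this reason these results are listed here. Each sex of a pool gives 1 value per treatment, and the difference was not tested across mice. The summed G2/M counts had a log2 ratio (LEM over VEH) of −0.53 in female and 0.56 in male cells, and the summed S-phase counts −0.20 and 0.21. The share of cells with G2/M members had −0.46 and 0.36, and both intervals included 0. For 25 members the count intervals of the sexes lay on opposite sides of 0. The share of all genes with opposite intervals is not given here. Past the fold, 30 of the 40 members were lower in female cells, beside 12.9% of all genes tested. In male cells 32 were higher, beside 13.6%. These members share the same few cells, so they are not 25 separate observations.

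Of the genes of replication and nucleotide supply, the log2 ratios in female and male cells were *Mcm5* −0.19 and 0.59, *Pclaf* −0.60 and 0.38, *Rrm2* −0.86 and 0.50 and *Tk1* −0.88 and 0.34. Of the genes of the cyclins and kinases of entry, the log2 ratios in female and male cells were *Ccna2* −0.49 and 0.55, *Ccnb1* −0.56 and 0.79, *Ccnb2* −0.43 and 0.47, *Cdk1* −0.49 and 0.53, *Plk1* −0.48 and 0.78, *Aurka* −0.60 and 0.50, *Aurkb* −0.67 and 0.70 and *Pbk* −0.83 and 0.63. Of the genes of centromeres and the passenger complex, the log2 ratios in female and male cells were *Birc5* −0.60 and 0.72, *Cdca8* −0.50 and 0.40, *Cenpa* −0.28 and 0.33, *Cenpe* −0.65 and 0.58 and *Cenpf* −0.49 and 0.56. Of the genes of the spindle, the log2 ratios in female and male cells were *Tpx2* −0.35 and 0.47, *Prc1* −0.51 and 0.67, *Nusap1* −0.44 and 0.83 and *Hmmr* −0.75 and 0.56. Of the anaphase-promoting complex, its targets and the common markers, the log2 ratios in female and male cells were *Ube2c* −0.53 and 0.86, *Cdca3* −0.36 and 0.71, *Top2a* −0.52 and 0.58 and *Mki67* −0.89 and 0.31.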

How the results depend on the processing

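No paired analysis was possible because each treatment had 1 library. For the same reason no replicate could be left out, and for the G2/M members the precision is set mostly by the 375 cells with G2/M members. Scaling by the median of ratios (which shifted all log2 ratios by −0.012), totals without the 20 genes with the most counts and leaving out choroid plexus-like cells moved none of the 40 member ratios beyond its counting interval. The mean over cells of counts per 10000 moved 3 and leaving out cells with high Scrublet scores, an alternative chosen after seeing the data, moved 0. Leaving out the doublets of Scrublet's own threshold was not run, since its threshold found none in VEH.

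The cells counted mattered more. The summed G2/M log2 ratio was 0.11 without cells with high Scrublet scores, 0.036 in thinned cells, 0.014 with the sexes weighted equally, −0.53 in female and 0.56 in male cells. The summed S-phase ratio was 0.0052 with the sexes weighted equally, −0.20 in female and 0.21 in male cells. Members higher in LEM numbered 0 in female and 32 in male cells, 6 with the sexes weighted equally (10.4% of all genes), 9 in thinned cells (11.9%), 10 without cells with high Scrublet scores (10.2%), 27 past a log2 ratio of 0.1 (24.7%), 0 past 0.58 (2.9%), and 5 of 22 in at least 1% of cells (6.19%). Members lower in LEM numbered 30 in female cells, 4 with the sexes weighted equally (7.8%), 2 in thinned cells (9.79%), 1 without cells with high Scrublet scores (7.55%) and 5 past −0.1 (17.7%). The share of cells with G2/M members had a log2 ratio of −0.46 in female cells and −0.054 with the sexes weighted equally, and that with S-phase members 0.18 in female cells and 0.041 when a gene needed 2 counts. Of the 12 members called higher over all cells, *Plk1* (−0.031), *Kif20a* (−0.046) and *Cdc20* (−0.064) changed sign in thinned cells, and 9 did in female cells: *Mcm3* (−0.019), *Ccnb1* (−0.56), *Plk1* (−0.48), *Birc5* (−0.60), *Kif20a* (−0.12), *Nusap1* (−0.44), *Cdc20* (−0.094), *Ube2c* (−0.53) and *Cdca3* (−0.36). The cause was not tested.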
